A study of Homo sapiens with 12 samples.

Results

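HSC3 is an established HPV-negative cell line of head and neck squamous cell carcinoma (HNSCC). The HSC3/tet-MUC1shRNA cells described here carry an shRNA against MUC1 (MUC1shRNA#1) in the pLKO-tet-puro vector, were selected in puromycin, and express that shRNA in the presence of doxycycline (DOX). RNA from cells treated with 500 ng/mL DOX was sequenced and compared with RNA from cells given vehicle (0.1% DMSO), for 7 days in both groups and with 3 libraries in each. These 6 libraries are all those that the labels give to HSC3, of 12 in the series. The other 6 come from CAL27/tet-MUC1shRNA cells, another HPV-negative HNSCC line with the same vector, doses and time. All 12 libraries carry the MUC1 shRNA, and no library of DOX-treated cells with a control shRNA was analysed here, so silencing of MUC1, other effects of the shRNA and effects of DOX cannot be told apart. The study's methods say that cells were cultured in triplicate without saying more. The p-values therefore measure the spread between these libraries, which may be technical.

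MUC1 encodes a transmembrane mucin whose C-terminal subunit, MUC1-C, spans the membrane and takes part in signaling from it. Squamous carcinoma cells such as HSC3 make the keratins and adhesion proteins of basal squamous epithelium under the transcription factor p63, and they respond to ligands of EGFR, to the matrix they attach to and to oxidative stress through NRF2. The question was which of these programs changed in HSC3 cells when the shRNA was induced, beyond the interferon, NOTCH and cell cycle genes.

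The libraries held from 89730914 to 169065103 counts. MUC1 itself (chr1:155185824-155192916 of GRCh38, minus strand) had 191, 162 and 196 counts in the vehicle libraries and 46, 36 and 16 in the DOX libraries, all of them lower. The counts per molecule were estimated at 4.18 to 7.43 in the vehicle libraries and 8.93 to 17.2 in the DOX libraries, so a low count stands for few molecules, and fewer with DOX. DOX replicate 1 stood apart: chi-square per degree of freedom was 141 and 90.9 between it and the other DOX libraries, and 23.2 between those 2. Between vehicle libraries it was 16.4 to 29. The libraries held squamous epithelial markers, which do not tell HSC3 from other squamous lines: all 10 squamous epithelial markers were tested, with summed levels of 8740 to 9340 CPM (counts scaled to library size) with vehicle and 4980 to 5520 with DOX. The fibroblast genes COL1A2, COL3A1 and DCN and the immune genes CD3E and LYZ were at 0 in all 6 libraries. The summed levels of all 7 fibroblast markers were 3.84 to 4.57 CPM with vehicle and 5.37 to 8.49 with DOX, those of all 6 immune markers 1.83 to 2.25 and 0.261 to 1.88, and those of all 5 endothelial markers 0.396 to 0.649 and 0.267 to 0.376.

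In HSC3 cells treated with DOX, 793 of 18021 genes tested were lower and 284 were higher, which is 4.4% and 1.58% of genes and 5.98% together. Calls needed an FDR under 0.05 (Benjamini-Hochberg, from edgeR's quasi-likelihood test) and a fold change over 2, and levels are CPM after TMM normalization. The calls ran to lower expression at every abundance. Of the genes called with a mean log2 CPM under 0, 208 were lower and 83 were higher, and at a mean log2 CPM of 7 or more, 36 were lower and 17 were higher. The share of calls that were lower stayed between 67.9% and 82.4% over 5 classes of abundance. Of 9133 genes averaging 3 or more in log2 CPM, 282 (3.09%) were called lower and 92 (1.01%) higher with no overlap between DOX and vehicle libraries, and these are termed well counted here. Without DOX replicate 1, 938 genes were lower and 340 higher, and 282 and 92 of these were well counted. With counts divided by each library's estimate per molecule, 732 were lower and 248 higher. In bulk RNA, fewer cells that express a gene and less of its RNA per cell cannot be told apart. Over all genes tested, the 2 groups of libraries did not overlap for 42.6%.

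**Figure D1:**
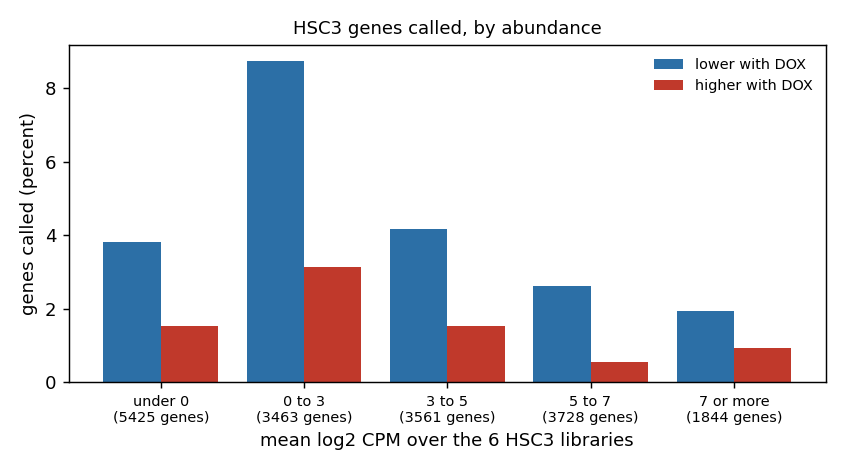
Percent of tested HSC3 genes called lower (blue) or higher (red) with DOX at edgeR adjusted p under 0.05 and a fold change over 2, in 5 classes of mean log2 CPM over the 6 libraries. Genes called lower outnumber genes called higher in each class, from 208 against 83 in the lowest to 36 against 17 in the highest.

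At the low end, 33 of the genes called lower had no DOX library above 3 counts, and in 28 of them all DOX libraries were at 0. GLI2, a transcription factor of the Hedgehog pathway, had 289, 226 and 363 counts in the vehicle libraries and 0 in each DOX library. RYR1, a calcium release channel, had 74, 38 and 128 counts with vehicle and 0 in each DOX library, and MUC2, a secreted mucin, had 56, 84 and 44 and 0. CMPK2, a mitochondrial nucleotide kinase, had 146, 74 and 76 counts in vehicle libraries and 0, 2 and 0 in DOX libraries. NPBWR1, a neuropeptide receptor, had 28, 30 and 71 counts, falling to 0, 2 and 2, and its call was lost without vehicle replicate 3 (edgeR adjusted p = 0.06). Each of these genes was seen in every vehicle library, which the filter on counts fixed in advance for genes this low with DOX. No fold change is given for them since the DOX libraries hold fewer molecules at a given count. In the other direction, 7 genes called higher had no vehicle library above 3 counts, and 6 of these (ACSM4, GAPDHP55, KLRG1, TTLL9, SNORD91A and AKIRIN1P2) lost their call without 1 library or another, with adjusted p values up to 0.074 for ACSM4 and 0.16 for GAPDHP55.

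Among well-counted genes, AKR1C2, TNS1 and NGFR were among the largest falls. AKR1C2, an aldo-keto reductase that acts on steroids and is a known NRF2 target, was at 16.6, 15.9 and 16.4 CPM in the vehicle libraries and 0.873, 0.529 and 1.04 CPM in the DOX libraries. Its log2 fold change was -4.33 with a standard error (SE) of 0.21 (edgeR adjusted p = 2.6e-07), the largest fall in size of any well-counted gene. TNS1 encodes tensin 1, which ties integrins to actin at focal adhesions, and it was at 20.2, 19.6 and 18.96 CPM with vehicle and 0.849, 1.03 and 1.25 with DOX (log2 fold change -4.24, edgeR adjusted p = 6.5e-08). NGFR, the p75 neurotrophin receptor of basal epithelial cells, went from 27.4, 23.2 and 27.2 CPM to 1.81, 2.38 and 2.77 (log2 fold change -3.49, edgeR adjusted p = 2.0e-07). In each of these 3 genes the DOX libraries lay closer to each other than to any vehicle library. Their choice by size of fall and absence of overlap largely fixed this.

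The scavenger receptor SCARA3 was at 49.3, 51.5 and 53.9 CPM with vehicle and 5.58, 5.82 and 6.87 with DOX. The siderophore-binding lipocalin LCN2 was at 23.8, 12.97 and 14.3 and 2.45, 2.4 and 1.65 CPM, with vehicle replicate 1 above the other vehicle libraries. PDPN, the podoplanin that squamous carcinoma cells show at invasive edges, was at 20.8, 21.7 and 21.3 and 2.86, 4.98 and 3.74 CPM. Their log2 fold changes were -3.08, -2.97 and -2.46. The other genes in the 15 largest falls were the pseudogene KRT16P6 (-3.13), AKR1C1 (-3.12), the lysosomal membrane protein gene LAPTM5 (-2.94), the protein-citrullinating enzyme gene PADI3 (-2.91), RAPGEFL1 (-2.69), the RAS GTPase-activating protein gene DAB2IP (-2.63), the linker histone gene H1-1 (-2.43), the secreted protease gene HTRA1 (-2.403) and the ubiquitin-conjugating enzyme gene UBE2Q2 (-2.37). Reads of KRT16P6 and KRT16 may be shared between near-identical copies, so the level of either is uncertain.

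The largest rise of a well-counted gene was in HSPB8, a small heat shock protein that works with BAG3 in clearing misfolded proteins. It was at 2.23, 2.77 and 2.14 CPM in the vehicle libraries and 20.7, 18.4 and 19.7 CPM in the DOX libraries (log2 fold change 3.04, SE 0.14, edgeR adjusted p = 1.6e-07). BAG3 itself had a log2 fold change of 0.06 that did not pass the test (edgeR adjusted p = 0.75), though without DOX replicate 1 it was 0.19 and passed (edgeR adjusted p = 0.034). FN1, which encodes the matrix protein fibronectin (chr2:215360440-215436073, minus strand), was at 113, 113 and 116 CPM with vehicle and 502, 535 and 556 with DOX (log2 fold change 2.22, edgeR adjusted p = 1.5e-08). The matricellular gene CCN1 (CYR61) was at 224, 219 and 187 and 751, 907 and 914 CPM (log2 fold change 2.03), and CCN2 (CTGF) at 32.9, 33.9 and 28.6 and 109.9, 111 and 113 CPM (1.81). MACC1, known for raising MET expression, was at 11.1, 11.2 and 11.7 and 53.7, 38.04 and 42.97 CPM. MET was not called with it, at a log2 fold change of 0.15 (edgeR adjusted p = 0.11). Also in the 15 largest rises were the tight junction gene CGN (1.98), the TEAD cofactor gene VGLL1 (1.87), the membrane ubiquitin ligase gene MARCHF4 (1.798), THBS1-IT1 (1.73), which overlaps THBS1, NACC2 (1.66), the arginine-derivative hydrolase gene DDAH1 (1.63), the ERK feedback inhibitor gene SPRY1 (1.59), GPRC5A (1.51), the cornified envelope gene SCEL (1.498) and ARID3A (1.48).

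**Figure D2:**
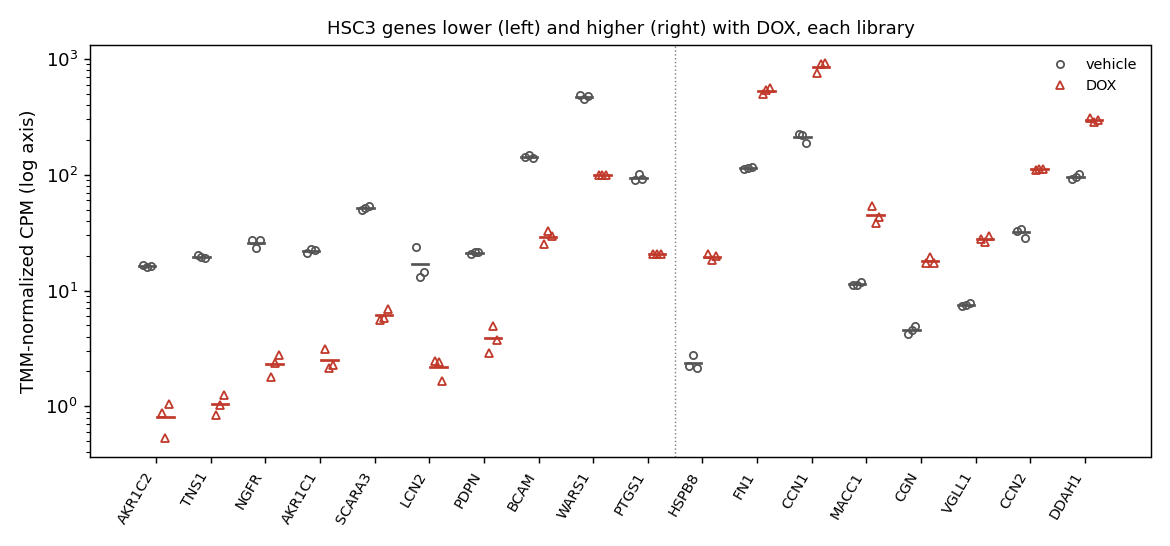
Level of 18 well-counted genes in each HSC3 library, in TMM-normalized CPM on a log axis, with vehicle as grey circles, DOX as red triangles and the mean of 3 libraries as a bar. The 10 genes on the left were lower and the 8 on the right higher with DOX, and the absence of overlap between the groups is part of how they were chosen.

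Gene lists were then read against the background of all genes tested, of which 15.4% were lower and 13% higher at edgeR adjusted p under 0.05, with a median log2 fold change of -0.01. Mitochondrially encoded mRNAs were at one end, with all 13 higher, and NRF2 targets were near the other, with 22 of 37 lower and 0 higher. These counts are descriptions of lists chosen with results of these libraries known. Members of a list, such as the 13 mitochondrial mRNAs, may vary together between libraries, so they are not independent results. Setting genes with no count in a group at the bound that a floor of 3 counts gives left every list median as it was. This could hardly come out otherwise, since such genes stay far from the median on the same side. It therefore says nothing about how low counts affect the lists.

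**Figure D3:**
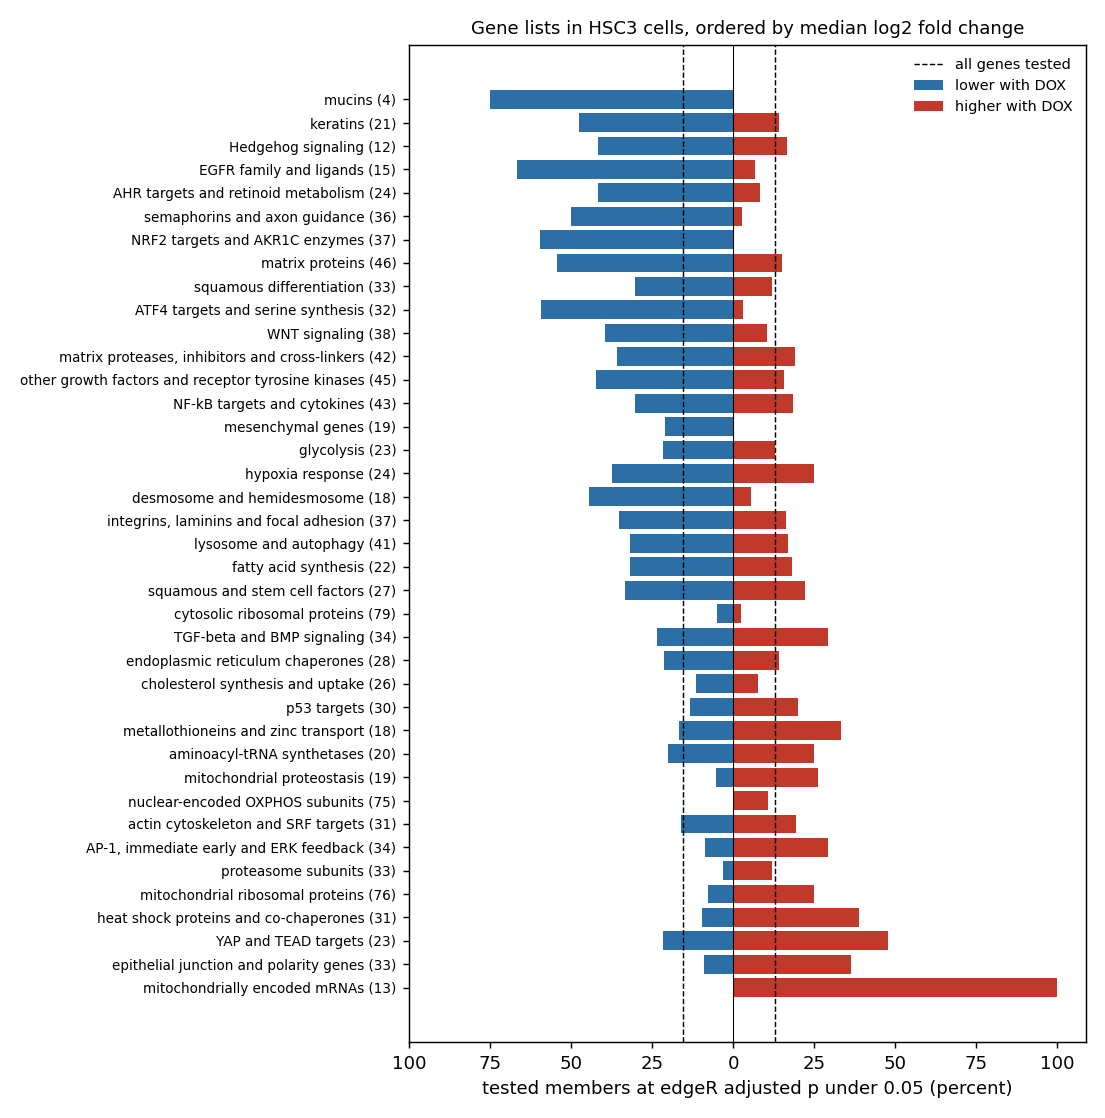
Share of tested members at edgeR adjusted p under 0.05 that were lower (blue, left) or higher (red, right) with DOX in HSC3 cells, in percent, for each gene list, with the number of members tested in parentheses and lists ordered by median log2 fold change. Dashed lines are the shares over all genes tested, 15.4% lower and 13% higher; mitochondrially encoded mRNAs were 100% higher and NRF2 targets 59.5% lower.

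NRF2, encoded by NFE2L2, switches on genes for glutathione synthesis, NADPH supply and the reduction of reactive carbonyls. Of 37 genes tested in this list, which includes the AKR1C enzymes, 22 were lower and 0 were higher, with a median log2 fold change of -0.59. NFE2L2 was at 286, 289 and 287 CPM with vehicle and 168, 159 and 167 with DOX (log2 fold change -0.802, edgeR adjusted p = 2.3e-06). NQO1, a quinone reductase used as a readout of NRF2, was at 279, 278 and 249 and 164, 156 and 153 CPM (-0.77). Both were lower in every DOX library than in any vehicle library. GCLC (-0.81) and GCLM (-0.32), which form the rate-limiting enzyme of glutathione synthesis, the malic enzyme gene ME1 (-0.54) and the drug exporter gene ABCC3 (-0.904) fell too, though GCLM kept an edgeR adjusted p under 0.05 only in the full set of 6 libraries and without DOX replicate 1 (p up to 0.114 with 1 library left out).

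The 3 AKR1C genes that fell are neighbors on chromosome 10, in a window of GRCh38 from 4963253 to 5107686. AKR1C1 was at 20.9, 22.7 and 22.2 CPM with vehicle and 3.12, 2.14 and 2.28 with DOX, and AKR1C3 at 8.04, 10.03 and 9.28 and 0.946, 1.19 and 0.932 CPM (log2 fold change -3.15). AKR1C4, the fourth member of the list in this family, was not tested, with at most 17 counts in a library. The upstream stretches of AKR1C1 and AKR1C2 (250 bases before the RefSeq start, GRCh38.p14) are shown to make plain how alike they are. Capitals mark the longest run that the 2 stretches share without a difference, which is 245 bases.
AKR1C1, chr10:4963165-4963414, plus strand: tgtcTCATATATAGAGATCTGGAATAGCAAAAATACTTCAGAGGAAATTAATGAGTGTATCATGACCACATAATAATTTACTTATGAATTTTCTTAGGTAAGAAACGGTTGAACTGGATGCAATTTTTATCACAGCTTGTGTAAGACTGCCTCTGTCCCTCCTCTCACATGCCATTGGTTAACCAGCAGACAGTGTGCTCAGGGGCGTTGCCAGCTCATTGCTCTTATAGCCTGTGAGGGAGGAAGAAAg
AKR1C2, chr10:5003858-5004107, minus strand: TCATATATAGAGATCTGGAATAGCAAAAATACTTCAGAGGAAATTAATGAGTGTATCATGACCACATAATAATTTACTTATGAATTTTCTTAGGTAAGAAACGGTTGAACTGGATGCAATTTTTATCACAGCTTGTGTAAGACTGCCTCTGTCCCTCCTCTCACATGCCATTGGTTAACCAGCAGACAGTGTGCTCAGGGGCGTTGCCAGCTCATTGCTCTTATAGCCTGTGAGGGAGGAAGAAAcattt
Aligned end to end, they were 96.5% identical, against 73.2% for AKR1C1 with AKR1C3 and 71.4% for AKR1C2 with AKR1C3, whose longest shared run was 12 bases in each case. These stretches lie before the RefSeq start, although the AKR1C1 gene of GENCODE v44 begins inside its stretch, at 4963253. They were not taken as mRNA sequence, so the transcripts were compared too. Of the distinct 50-base windows in protein-coding AKR1C2 transcripts (GENCODE v44), 36.4% occur unchanged in those of AKR1C1 and 4.25% in those of AKR1C3. Reads within shared windows may not be assignable to 1 gene, and how they were counted is not given in the sources used here, so the split of the fall between AKR1C1 and AKR1C2 is uncertain.

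Genes of the matrix and its attachment moved in both directions. Of 46 matrix protein genes tested, 25 were lower and 7 higher, with a median log2 fold change of -0.54. Of the 7 fibroblast markers, which would mark stromal cells, COL1A2, COL3A1 and DCN had no count in any of the 6 libraries. COL1A1 was at 4.32, 4.37 and 3.84 CPM with vehicle and 5.37, 7.06 and 8.31 with DOX. LUM, PDGFRA and PDGFRB had at most 24 counts in a library. COL12A1, a collagen that decorates fibrils, was at 42.9, 44.6 and 47.8 CPM with vehicle and 12.6, 11.2 and 12.6 with DOX (log2 fold change -1.896, edgeR adjusted p = 2.1e-07). The fibrillin genes FBN1 (-1.499) and FBN2 (-1.25) and COL16A1 (-1.19) fell with it. Against these, fibronectin rose as given above, THBS1, encoding thrombospondin 1, went from 1507, 1455 and 1319 to 3182, 3235 and 3249.7 CPM (1.18), and SPARC, a collagen-binding matricellular protein gene, from 336, 368 and 372 to 627, 607 and 610.2 CPM (0.78). The median of the list ran from -0.74 with counts scaled to molecules to -0.45 in 1 fit of all 12 libraries, and was -0.46 without DOX replicate 1 and -0.72 without DOX replicate 3.

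Among matrix proteases, inhibitors and cross-linkers, 15 of 42 were lower and 8 higher. MMP2, a gelatinase, was at 14.9, 15.9 and 13.5 CPM with vehicle and 3.602, 3.36 and 3.18 with DOX (-2.13). MMP1, the interstitial collagenase (-1.63), and TIMP3, a matrix-bound inhibitor of such enzymes (-1.44), fell, so that a protease and an inhibitor moved the same way. LOX, which cross-links collagen and elastin, rose from 13.01, 12.6 and 14.5 to 39.6, 32.2 and 32.7 CPM (1.38, edgeR adjusted p = 5.2e-06). Of 37 integrin, laminin and focal adhesion genes, 13 were lower and 6 higher. Beside TNS1, ITGB8 (-1.404) and ITGAV (-0.87), which pair as an integrin that can release active TGF-beta, both fell, and ITGA2, a collagen receptor subunit, rose (0.43).

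YAP and its relative TAZ carry signals from cell shape and matrix stiffness to the nucleus, where they act with TEAD factors. Of 23 YAP and TEAD targets tested, 11 were higher and 5 lower, with a median log2 fold change of 0.21. The members that passed did not move one way. ANKRD1, a muscle-type repeat protein used as a YAP readout, was at 0.443, 0.705 and 0.428 CPM with vehicle and 8.005, 9.61 and 10.7 with DOX (log2 fold change 4.19, SE 0.23), and CCN1 and CCN2 rose as above. TGFB2, a TGF-beta ligand, was at 13.1, 14.3 and 13.2 and 36.5, 32.8 and 36.5 CPM (1.38). The receptor tyrosine kinase gene AXL (-0.44), IGFBP3 (-1.19), which binds insulin-like growth factors, and PTPN14 (-0.76), a phosphatase that holds YAP back, fell. TPM1, an actin-binding tropomyosin on the SRF list, rose from 134, 135 and 141 to 295, 306 and 301 CPM, in a list where 6 of 31 rose and 5 fell.

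The promoters of 3 members that rose are shown because they hold the letters that TEAD factors are known to bind. The search was for CATTCC on either strand, which reads GGAATG on the other, in the 250 bases before the RefSeq start (GRCh38.p14). Capitals mark each match.
CCN2, chr6:131951373-131951622, minus strand: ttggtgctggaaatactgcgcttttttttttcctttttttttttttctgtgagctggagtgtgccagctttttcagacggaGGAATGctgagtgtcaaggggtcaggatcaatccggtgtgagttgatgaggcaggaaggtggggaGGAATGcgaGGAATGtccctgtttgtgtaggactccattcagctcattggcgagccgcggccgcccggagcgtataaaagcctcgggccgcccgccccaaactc
ANKRD1, chr10:90921088-90921337, minus strand: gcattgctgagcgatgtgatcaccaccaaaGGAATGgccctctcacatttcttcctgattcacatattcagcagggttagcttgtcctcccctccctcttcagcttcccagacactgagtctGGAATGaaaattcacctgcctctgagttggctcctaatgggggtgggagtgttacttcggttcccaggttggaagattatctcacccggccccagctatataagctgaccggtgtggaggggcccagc
TGFB2, chr1:218345086-218345335, plus strand: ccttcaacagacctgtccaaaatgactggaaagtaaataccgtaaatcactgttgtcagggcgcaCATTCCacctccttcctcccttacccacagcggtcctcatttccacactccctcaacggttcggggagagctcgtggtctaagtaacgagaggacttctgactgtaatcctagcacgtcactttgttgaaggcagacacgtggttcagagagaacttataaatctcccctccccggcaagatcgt
CCN2 has 3 matches, which begin 169, 104 and 95 bases before the start, ANKRD1 has 2, at 220 and 128 bases, and TGFB2 has 1, at 185 bases. Of 35116 promoters in the RefSeq table, 11.9% hold at least 1 match, 0.94% hold 2 or more and 0.0826% hold 3 or more. Of the 23 list members tested, 17 are in that table and 8 have a match. The 8 include PTPN14 and AXL, which fell, so a match was found on both sides of the list.

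The keratins changed in a pattern by type. Of 21 keratin genes tested, 10 were lower and 3 were higher. KRT14, the acidic keratin of basal squamous cells, was at 1059.5, 1268 and 1056 CPM with vehicle and 249.9, 342 and 330.4 with DOX (log2 fold change -1.88, edgeR adjusted p = 1.2e-06). Its partner KRT5 was at 2565, 2798 and 2518 and 1156, 1418 and 1357 CPM (-1.003), and the stress keratins KRT16 (-1.83), KRT6A (-1.19) and KRT17 (-0.74) fell as well. KRT8 and KRT18, the pair of simple epithelia, moved the other way. KRT8 was at 290.4, 297 and 267 CPM with vehicle and 621, 924 and 824 with DOX (1.47, edgeR adjusted p = 7.7e-06), KRT18 at 192, 186 and 180.1 and 343, 444 and 449.6 CPM (1.15), and KRT19 had a log2 fold change of 0.495, which did not pass without vehicle replicate 1 or 3 or DOX replicate 2 or 3. DOX replicate 1 was the lowest DOX library for each of KRT5, KRT14, KRT8 and KRT18, and no DOX library overlapped the vehicle libraries for any of them. On a scale per length of exon (RPKM), the mean level of KRT14 went from 500.1 to 136 and that of KRT18 from 60.6 to 134, so that these 2 ended near each other with DOX. The median of the list ran from -1.0 to -0.65 over the alternatives.

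TP63, which encodes the p63 factor of squamous identity, was at 737, 736 and 726 CPM with vehicle and 329.6, 308 and 313 with DOX (log2 fold change -1.21, SE 0.056, edgeR adjusted p = 1.9e-07). KLF5, another squamous transcription factor gene, was at 525, 497 and 535 and 269, 250.1 and 277 CPM (-0.97). Of 27 squamous and stem cell factors tested, 9 were lower and 6 higher. Those lower included NGFR, the retinoic acid receptor gene RARG (-1.22) and ALDH1A3 (-1.14), and those higher included SOX9 (0.73) and the chromatin protein gene HMGA2 (0.56). SOX2 had 58, 38 and 44 counts in vehicle libraries and 2, 2 and 12 in DOX libraries, and its call (edgeR adjusted p = 0.02) was lost without any single vehicle library or DOX replicate 2, with p up to 0.095.

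The list of squamous differentiation had 10 lower and 4 higher of 33 tested. KLK5, a kallikrein protease of the cornified layer, was at 215, 223 and 205 CPM with vehicle and 43.2, 57.8 and 59.4 with DOX (-2.001). KLK10 (-1.37), the ceramide synthase gene CERS3 (-1.94) and the p63-dependent calcium-binding protein gene S100A2 (-0.91) fell too, while SCEL rose (1.498). In the desmosome and hemidesmosome list, 8 of 18 were lower and 1 higher, with the plaque protein gene PKP1 lowest among those named (-1.02), and the desmosomal cadherin genes DSG2 (-0.84), DSG3 (-0.53) and DSC3 (-0.68) also lower.

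Junction and polarity genes ran the other way, with 12 of 33 higher and 3 lower. CGN, encoding the tight junction protein cingulin, was at 4.2, 4.54 and 4.99 CPM with vehicle and 17.3, 19.5 and 17.4 with DOX, and EPCAM, an epithelial adhesion protein gene, at 50.4, 48.03 and 53.8 and 104, 89.8 and 84.8 CPM (0.87). The epithelial splicing factor gene ESRP2 (0.52) and the membrane protease gene PRSS8 (0.57) rose. BCAM, a laminin receptor on basal epithelial cells, fell from 142, 147 and 140.2 to 25.2, 32.6 and 29.7 CPM (-2.29, edgeR adjusted p = 1.0e-07), and P-cadherin (CDH3) had a log2 fold change of -0.66. E-cadherin (CDH1) had a log2 fold change of -0.02 that did not pass the test (edgeR adjusted p = 0.87). Of 19 mesenchymal genes tested, 4 were lower and 0 were higher, but only 5 of the 19 averaged 3 or more in log2 CPM, and 1 of these was lower. VIM, which encodes vimentin, was at -0.11 (edgeR adjusted p = 0.17). The groups of libraries thus differed in basal and simple keratins and in junction genes, while CDH1 and VIM gave no call.

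**Figure D4:**
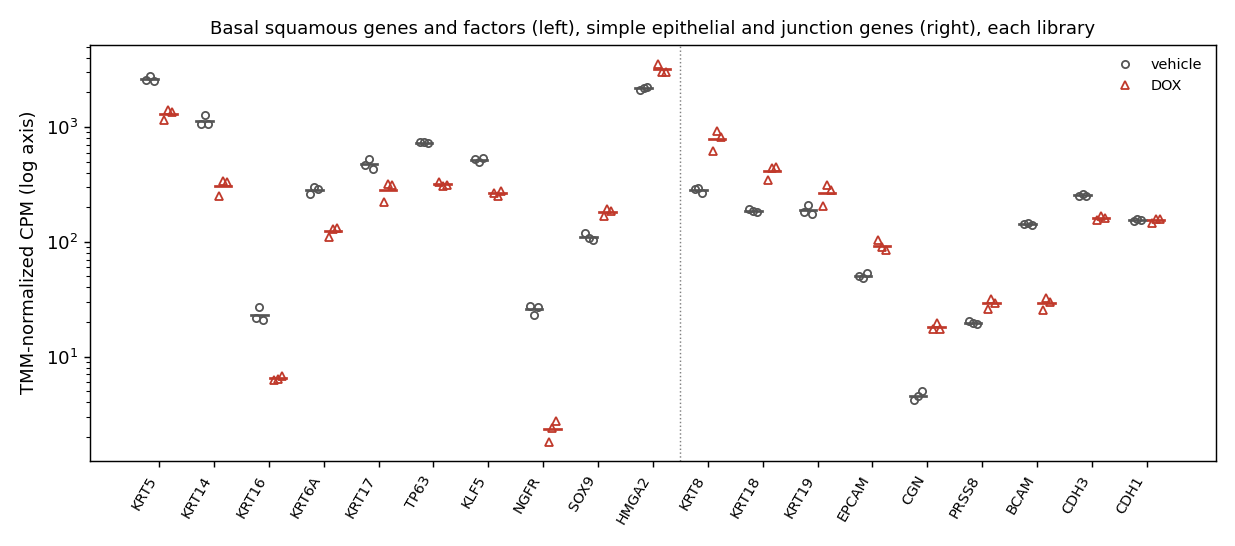
Level in each HSC3 library, in TMM-normalized CPM on a log axis, of 10 basal keratins and squamous or stem cell factors (left of the dotted line) and 9 simple epithelial or junction genes (right), drawn from those named in the text, with vehicle as grey circles, DOX as red triangles and the mean of 3 libraries as a bar. On the left 8 genes are lower with DOX, and SOX9 and HMGA2 are higher. On the right 6 are higher (KRT19 with a call that single libraries decide), while BCAM and CDH3 are lower and CDH1 gave no call.

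EGFR and its relatives bind a family of ligands that epithelial cells shed from their own surface. Of 15 genes of this family tested, 10 were lower and 1 was higher, with a median log2 fold change of -0.70. EREG, the ligand epiregulin, was at 583, 537 and 663 CPM with vehicle and 232, 174 and 181 with DOX (log2 fold change -1.603, edgeR adjusted p = 2.6e-06). AREG, the ligand amphiregulin, was at 714, 724 and 753 and 484, 525 and 469 CPM (-0.57), and the ligand genes TGFA (-1.11) and NRG1 (-1.01) fell by about a factor of 2. The receptor gene ERBB3 rose (0.61), and EGFR was at 0.105 (edgeR adjusted p = 0.23). The 4 ligand genes named here were thus lower, with no call for EGFR.

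These 4 ligand genes changed otherwise in CAL27 cells. There, the log2 fold change of EREG was 0.96 (edgeR adjusted p = 7.5e-10) and that of AREG 1.13 (edgeR adjusted p = 1.1e-10), and the difference between the lines was -2.56 (edgeR adjusted p = 3.8e-08) for EREG and -1.701 (edgeR adjusted p = 2.1e-08) for AREG. TGFA and NRG1 differed by -1.22 and -1.35 (edgeR adjusted p = 6.5e-07 and 8.3e-07). Downstream, in the list of AP-1, immediate early and ERK feedback genes, 3 of 34 were lower and 10 higher. FOSL1, an AP-1 subunit gene induced by ERK, was at -0.29 in HSC3 cells, with the call lost without vehicle replicate 3 (-0.25, edgeR adjusted p = 0.056), and 2.09 in CAL27 cells, a difference of -2.38 (edgeR adjusted p = 5.2e-09). SPRY1 (1.59) and DUSP5 (0.91), feedback inhibitors of the pathway, rose in HSC3 cells, EGR1 (-0.47) fell, with the call lost without vehicle replicate 1 (-0.43, edgeR adjusted p = 0.051), and DUSP6 was at -0.01 (edgeR adjusted p = 0.95).

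**Figure D5:**
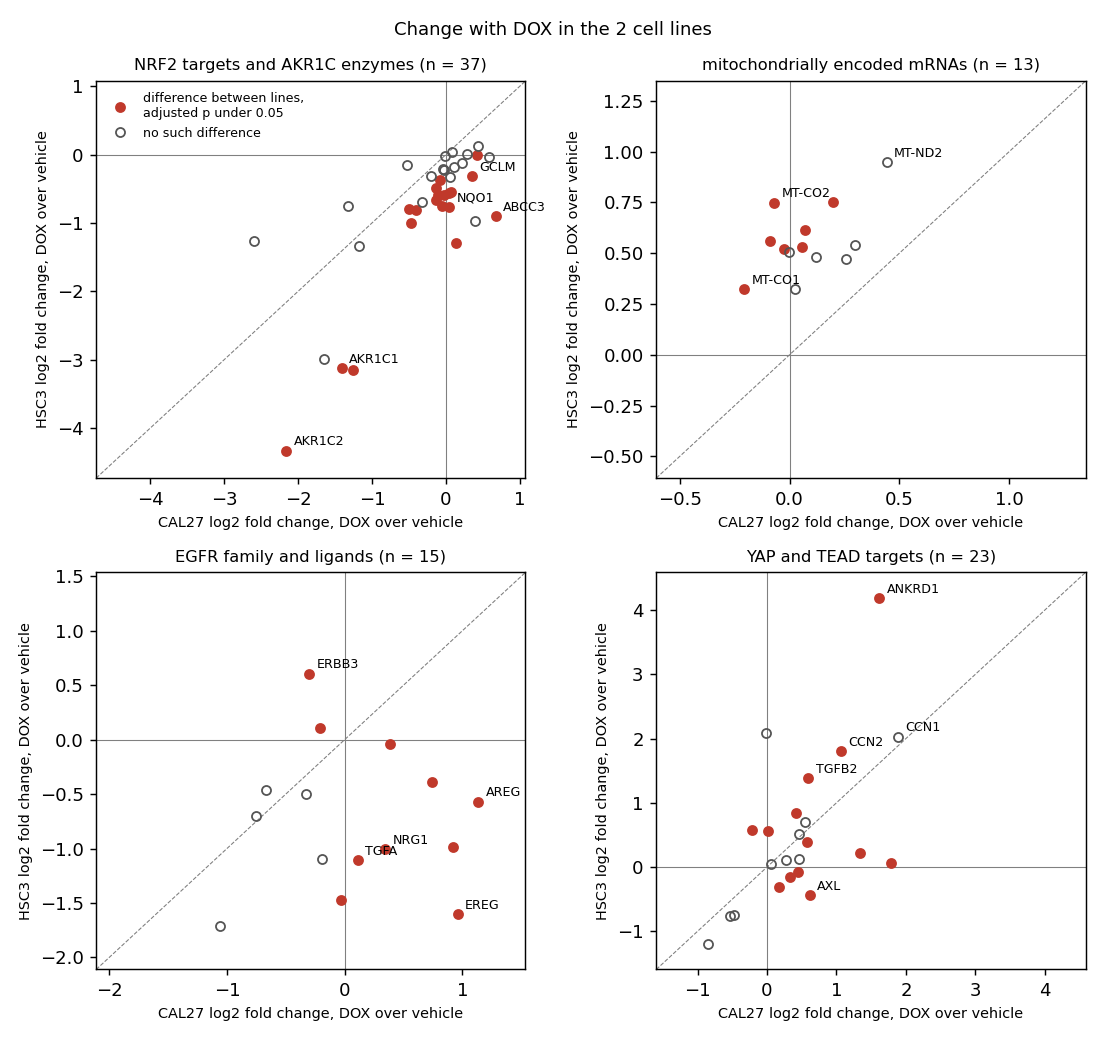
Log2 fold change with DOX in CAL27 cells (horizontal) and HSC3 cells (vertical) for the tested members of 4 lists, with filled red points where the difference between the lines had an edgeR adjusted p under 0.05 and a dashed line where both changes are equal. NRF2 targets and EGFR ligands lie mostly under the dashed line, and mitochondrially encoded mRNAs above it.

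Other growth factor and receptor genes fell more often than they rose, with 19 of 45 lower and 7 higher. FGFBP1, which releases fibroblast growth factors from matrix, was at 90.1, 97.2 and 92.8 CPM with vehicle and 24.03, 27.1 and 27.1 with DOX (-1.84). PDGFC (-1.65) fell and PDGFB (1.04) rose, both of which encode ligands of PDGF receptors. Guidance genes also ran low, with 18 of 36 semaphorin and axon guidance genes lower and 1 higher (median log2 fold change -0.61). The semaphorin receptor gene PLXNC1 (-1.73), the ligand genes SEMA3C (-1.38) and SEMA4D (-1.24) and the netrin receptor gene UNC5B (-1.22) were all called lower. SEMA7A was the one that rose (0.37), and it did not pass without any single library other than DOX replicate 1.

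In WNT signaling, 15 of 38 genes were lower and 4 higher. KREMEN1, a receptor for the WNT inhibitor DKK1, was at 36.9, 39.02 and 39.2 CPM with vehicle and 6.94, 9.26 and 8.97 with DOX (-2.19), and DKK1 rose (0.81). In the Hedgehog pathway, 5 of 12 genes were lower and 2 higher, mostly on low counts. SMO, the transducer of the pathway, had 322, 218 and 300 counts in vehicle libraries and 38, 8 and 62 in DOX libraries, and GLI1, a target and effector, 314, 324 and 330 and 66, 177 and 65. The DOX libraries spread widely for both, though each lay under the vehicle libraries. BOC (-0.76) and GLI3 (-0.74) also passed with lower levels, and the receptor gene PTCH1 (0.70) and SUFU (0.45), both inhibitors of the pathway, with higher levels. Of the other members, SHH (-0.94), GAS1 (-0.70), CDON (-0.66) and KIF7 (-0.28) did not pass. GAS1 passed without DOX replicate 1 (-1.63, edgeR adjusted p = 0.0021) and CDON without DOX replicate 3 (-1.07, edgeR adjusted p = 0.026). TGF-beta and BMP genes split evenly, with 8 of 34 lower and 10 higher. There the ligand genes TGFB2 and INHBA (1.09) and the receptor gene TGFBR2 (0.96) rose, and TGFBR1 (-0.68), SMAD2 (-0.71) and the activin-binding protein gene FST (-1.18) fell.

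All 13 mRNAs encoded by the mitochondrial genome rose in HSC3 cells, with a median log2 fold change of 0.53. These mRNAs encode the mitochondrion's own subunits of the respiratory chain and ATP synthase. MT-CO2, a subunit of cytochrome c oxidase, was at 4629, 4946 and 4552 CPM with vehicle and 8624, 7094 and 8014 with DOX (log2 fold change 0.75, edgeR adjusted p = 3.5e-05). MT-ND2, of complex I, changed most, from 4231, 4687 and 4589 to 10442, 7087 and 8519 CPM (0.95), and MT-CO1 least, from 14426, 15154 and 13330 to 19991, 15540 and 18146 CPM (0.32, edgeR adjusted p = 0.02). DOX replicate 1 was the highest library for each of these 3, and without it the median over the 13 was 0.44. The remaining members were at 0.33 (MT-CO3), 0.47 (MT-ND1), 0.48 (MT-ATP6), 0.505 (MT-ND6), 0.52 (MT-CYB), 0.53 (MT-ND5), 0.54 (MT-ND3), 0.56 (MT-ND4), 0.62 (MT-ND4L) and 0.75 (MT-ATP8). The calls of MT-CO1, MT-ND6 and MT-ATP6 were lost without vehicle replicate 1, those of the first pair also without vehicle replicate 3, and that of MT-CO1 without DOX replicate 3. Overlapping mitochondrial genes such as MT-ATP8 and MT-ATP6 may share reads.

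In CAL27 cells 1 of the 13 rose, with a median of 0.06, while 4286 of 17164 genes tested in both lines rose there. The difference between the lines passed for 7 of the 13. For MT-CO2 it was 0.82 (edgeR adjusted p = 1.3e-04), the clearest of the 3 described. Of 75 nuclear genes for subunits of the same complexes, 8 were higher and 0 lower in HSC3 cells, with ATP5MG highest of those named (0.89) and NDUFS1 (0.05) and COX4I1 (-0.18) not passing. Mitochondrial ribosomal protein genes had 19 of 76 higher and 6 lower, and cytosolic ones 2 of 79 higher and 4 lower. The share of nuclear genes of respiration that were higher, 10.7%, was under the 13% of all genes tested. The share that were lower, 0%, was under the 15.4% of all genes, and the list's median log2 fold change was 0.09 against -0.01. The 13 mRNAs of the organelle all passed.

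Stress-response genes did not move as 1 group. Genes under ATF4 and of serine synthesis were lower in 19 of 32 cases and higher in 1, with the neutral amino acid transporter gene SLC1A4 (-1.34), the lipoprotein receptor gene VLDLR (-1.13) and the pseudokinase gene TRIB3 (-0.78) among them. ATF4 itself was at 0.06 (edgeR adjusted p = 0.61) and PHGDH, the first enzyme of serine synthesis, at -0.11 (edgeR adjusted p = 0.42). Heat shock proteins and co-chaperones were higher in 12 of 31 cases and lower in 3, among them HSPB8, DNAJB6 (0.93) and the mitochondrial chaperonin gene HSPD1 (0.43). HSPA13 fell (-1.23), and HSF1, the master factor of the heat shock response, was at 0.07 (edgeR adjusted p = 0.75) with all libraries and 0.22 without DOX replicate 1 (edgeR adjusted p = 0.025). Endoplasmic reticulum chaperones had 6 lower and 4 higher of 28, and HSPA5 (BiP) was at 0.03 (edgeR adjusted p = 0.79). Of 18 genes of metallothioneins and zinc transport, 3 were lower and 6 higher, with a median log2 fold change of 0.02. MT1E (1.18) and MT2A (0.88), which bind zinc and copper, rose, though metallothionein copies are alike and reads may be split between them. Targets of p53 were lower in 4 and higher in 6 of 30, with CDKN1A at 0.51 and TP53INP1 at -1.85.

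In metabolism, single enzymes stood out rather than whole pathways. WARS1, the tryptophanyl-tRNA synthetase gene, was at 484, 454 and 478 CPM with vehicle and 98.8, 100.2 and 100.4 with DOX (log2 fold change -2.24, edgeR adjusted p = 1.4e-08). Of 20 synthetase genes tested, 4 were lower and 5 higher. WARS1 is also known as an interferon-induced gene. Of 23 glycolysis genes, 5 were lower and 3 higher. PGAM1, a phosphoglycerate mutase, was at 307, 339 and 304 CPM with vehicle and 98.7, 108 and 111 with DOX (-1.58), and LDHA, which makes lactate, at 241, 274 and 296 and 112, 131 and 112 CPM (-1.19), while the glucose transporter gene SLC2A1 was at 0.05 (edgeR adjusted p = 0.71). Both enzymes have processed pseudogenes that can share reads.

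Lipid genes were split, with 3 lower and 2 higher of 26 for cholesterol, and 7 lower and 4 higher of 22 for fatty acids. The desaturase gene FADS1 (-1.48) and the elongase gene ELOVL7 (-1.49) fell. In AHR and retinoid metabolism, 10 of 24 were lower and 2 higher. Those lower include the retinal reductase gene DHRS3 (-1.39), the retinal dehydrogenase gene ALDH1A3 and the receptor gene RARG, while the AHR target CYP1B1 was at -0.03 (edgeR adjusted p = 0.92). The lower genes named here belong to the retinoid part of this list, and other members that passed are not described. Hypoxia genes had 9 lower and 6 higher of 24, with NDRG1 at -1.33 and VEGFA at -0.49.

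Cytokine and NF-kB target genes were lower in 13 and higher in 8 of 43 cases. PTGS1, the constitutive cyclooxygenase, was at 89.9, 101 and 91.1 CPM with vehicle and 20.6, 20.6 and 20.9 with DOX (log2 fold change -2.18, edgeR adjusted p = 6.5e-08). Of the cytokines, LIF rose from 5.01, 5.295 and 5.38 to 11.3, 13.4 and 14.2 CPM (1.31) and IL6 from 2.57, 1.31 and 1.77 to 6.19, 5.04 and 5.39 CPM (1.55), both of the family that signals through gp130, while the chemokine gene CXCL8 fell (-0.75). CXCL1, another neutrophil chemokine gene, was at 0.603 in HSC3 cells and -1.74 in CAL27 cells, and BIRC3, an inhibitor of apoptosis, at 0.93 and -1.01. The differences between the lines were 2.34 (edgeR adjusted p = 8.5e-08) and 1.95 (edgeR adjusted p = 2.3e-07). In the lysosome and autophagy list, 13 of 41 were lower and 7 higher. There MAP1LC3B, which coats autophagosomes, fell (-1.33), and its relative GABARAPL1 (0.79) and the cargo receptor gene SQSTM1 (0.68) rose. Of 33 proteasome genes, PSMB5, a catalytic subunit, was the only one that fell at the threshold (-1.53), and 4 rose. Of 14 mucin genes, 4 were tested, of which MUC1, MUC2 and MUC16 (-1.56) were lower and MUC5B (-2.82) did not pass.

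Some of the genes called lower lie side by side. Runs of at least 3 neighboring protein-coding genes, all tested and all called the same way, were sought after their values had been seen. There were 9 such runs, all of them lower. Of 13739 protein-coding genes tested, 5% were called lower and 1.68% higher, so runs of lower calls were the likelier kind from the start. The calls of DUOXA2, F2RL2, IQGAP2 and NOS1AP in these runs were lost without vehicle replicate 3 and, for the first 3, without either other vehicle library, so the runs around them are less firm. Beside runs of interferon-induced GBP and OAS genes and the AKR1C run, one on chromosome 6 from 149883179 to 150025532 held 5 genes for ligands of the killer cell receptor NKG2D. In it ULBP2 was at 14.6, 13.3 and 14.2 CPM with vehicle and 4.77, 4.19 and 3.54 with DOX (-1.75, edgeR adjusted p = 5.2e-06) and ULBP1 at 5.62, 6.83 and 8.04 and 3.35, 2.81 and 3.98 CPM (-1.01). RAET1G had 257, 165 and 264 counts in vehicle libraries and 40, 15 and 8 in DOX libraries, and RAET1E (-2.08) and RAET1L (-2.41) were lower too. Members of this family are alike in sequence and may share reads.

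A run on chromosome 15 from 45092650 to 45165576 held the 2 dual oxidases, which make hydrogen peroxide at the cell surface, and their maturation factors. DUOX1 was at 10.2, 10.6 and 9.81 CPM with vehicle and 1.904, 1.63 and 2.13 with DOX (-2.44). DUOX2 had 42, 50 and 22 counts, DUOXA1 58, 64 and 40 and DUOXA2 16, 8 and 12 with vehicle, and all 3 were at 0 in each DOX library. On chromosome 5 from 76403285 to 76735770, the thrombin receptor gene F2R fell from 222, 218 and 226 to 92.9, 81.4 and 82.2 CPM (-1.38) beside F2RL2 (-2.86) and IQGAP2 (-1.51). On chromosome 1 from 161983192 to 162529631 the run was OLFML2B, NOS1AP (-1.22), C1orf226 and UHMK1 (-1.19). The last runs were of 4 and 9 replication-dependent histone genes on chromosome 6, from 26017032 to 26027283 and from 27824092 to 27893106. H1-1 was at 27.5, 25.6 and 26.9 CPM with vehicle and 3.53, 6.68 and 4.66 with DOX, and H3C12, which closes the longer run, at 59.1, 52.6 and 56.9 and 17.6, 32.6 and 33.3 CPM (-1.02). Histone mRNAs of this kind mostly lack poly(A) tails, so poly(A) libraries hold a part of them only, and their copies are near-identical.

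Set against CAL27 cells in 1 fit of all 12 libraries, the change with DOX differed between the lines for 20.6% of 20694 genes. Of the 1075 genes called in HSC3 cells that had this test, 683 differed. Of the 791 lower in HSC3 cells, 484 were further lower there than in CAL27 cells and 20 were less so. Of the 284 higher, 175 were further higher and 4 less so. Calls in HSC3 cells were chosen for their size in that line, so an excess of larger changes there is part of how they were picked. FN1 was at 0.02 in CAL27 cells (edgeR adjusted p = 0.73), a difference of 2.197 (SE 0.071, edgeR adjusted p = 9.7e-11). VGLL1 differed by 2.07 and ANKRD1 by 2.57 (edgeR adjusted p = 6.2e-07 and 6.3e-06). MARCHF4, at 32.8, 34.01 and 33.2 CPM with vehicle and 106, 122 and 119.8 with DOX in HSC3 cells, rose more in CAL27 cells (5.85), a difference of -4.06 (edgeR adjusted p = 5.4e-08). The keratin pair of simple epithelia gave no such contrast: KRT8 was at 1.45 and KRT18 at 1.26 in CAL27 cells, with differences of 0.02 (edgeR adjusted p = 0.96) and -0.11 (edgeR adjusted p = 0.58). KRT19, though, rose in HSC3 cells and was at -1.79 in CAL27 cells, a difference of 2.296 (edgeR adjusted p = 5.5e-05). For NFE2L2 and NQO1 the differences were -0.297 and -0.82 (edgeR adjusted p = 0.0041 and 7.2e-06). Of 37 genes of the NRF2 list tested in CAL27 cells, 14 were lower and 7 higher there. Over the 17164 genes tested in both lines, 3762 were lower and 4286 higher in CAL27 cells.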

How the data were processed

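RNA-seq was performed on 6 HSC3/tet-MUC1shRNA and 6 CAL27/tet-MUC1shRNA libraries made from TRIzol-extracted RNA with the TruSeq Stranded mRNA kit. The submitters' processing notes name FastQC 0.11.9, STAR 2.7.9a, Subread 2.0.1, featureCounts and GRCh38. The authors deposited whole-number counts on 39368 gene symbols for each line, without normalization. The counting options and annotation are not given in the sources used here. Of the symbols, 38934 matched GENCODE v44 by current symbol and 370 by a RefSeq synonym. In the CAL27 table the DOX columns were mapped to their group without a replicate number.

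The 6 HSC3 libraries were fitted in R 4.3.3 with edgeR 4.0.16 (filterByExpr at min.count 10 and min.total.count 15, TMM, robust glmQLFit, glmQLFTest, two-sided), with adjustment over 18021 genes. Standard errors are the size of the log2 fold change divided by the square root of F. The difference between the lines is the interaction of line and DOX in 1 fit of 12 libraries. Intervals and floors would cover counting error only. Counts were simulated for the HSC3 comparison with 200 of 18021 genes changed. Recovery was scored at an edgeR adjusted p under 0.05 alone, without the cutoff on fold change that calls needed. It was 61% at a log2 fold change of 1, 76% at 1.5 and 75% at 2. Unchanged genes that passed were 12, 7 and 3. The simulation did not model several counts per molecule, so recovery in these libraries may be different.

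The comparison, gene lists and tests were chosen with earlier results of these data known. Of 1363 members of 39 lists, 1362 matched a symbol. Genes named are MUC1, the 15 largest changes in each direction among well-counted calls, anchor genes of each list and up to 4 of its largest changes in each direction at a log2 CPM of 3 or more, all members of lists of at most 15 genes, the called genes nearest to 0 in 1 group, and the 5 largest differences between the lines in each direction. KLF5, AKR1C4 and the genes of neighboring runs were named after their values were seen, and a few genes under these rules are not reported here. Promoters are from RefSeq (GRCh38.p14), and sequence of the shRNA was not used here. Alternatives covered normalization (DESeq2's size factors, library totals), filters, DESeq2 1.42.0, thresholds, glmTreat, a replicate block, counts per molecule, the 12-library fit and each library left out. Same-numbered libraries did not deviate together (correlations -0.199, 0.343 and -0.34).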

Additional observations from a re-analysis of the deposited data

Results flagged for a closer look

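Changes in HSC3 cells were compared with those in CAL27 cells through the interaction of line and DOX in 1 edgeR fit of 12 libraries. Of 203 genes named that had this test, 149 differed between the lines at an adjusted p under 0.05, against 20.6% of all 20694 genes tested. Genes were named mostly for large changes in HSC3 cells, and some for a large difference between the lines. A larger share among them is thus part of how they were picked. Listed here are the genes whose comparison with CAL27 cells the report describes and that passed, with the difference in log2 fold change, HSC3 minus CAL27. These genes stood out because they passed the test in each line with opposite signs: EREG (-2.56), FOSL1 (-2.38), CXCL1 (2.34), KRT19 (2.30), BIRC3 (1.95), AREG (-1.70) and NRG1 (-1.35). In these, the EGFR ligand genes fell in HSC3 cells and rose in CAL27 cells, and the chemokine gene CXCL1, KRT19 and BIRC3 rose in HSC3 cells and fell in CAL27 cells. The others differed in size, or passed in 1 line alone: MARCHF4 (-4.06), ANKRD1 (2.57), FN1 (2.20), VGLL1 (2.07), TGFA (-1.22), MT-CO2 (0.82), NQO1 (-0.81) and NFE2L2 (-0.30). Over all genes, 406 genes that were lower and 205 that were higher in HSC3 cells passed in both lines with opposite signs and a difference at an adjusted p under 0.05. Dixon's test of single outlying libraries was not run on groups of 3. No explanation of these differences was tested.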

How the results depend on the processing

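At a threshold of FC>1.5, 1514 HSC3 genes were lower and 798 higher with DOX, and 803 and 427 of them were well counted. In 1 fit of all 12 libraries 1237 were lower and 545 higher, while 281 and 93 were well counted. The cause of that rise was not tested. With glmTreat against a fold change of 1.5, 163 well-counted genes were called higher, a setting without the cutoff of 2. All other settings kept these counts within a factor of 1.5, from 654 to 938 lower, 239 to 340 higher, 273 to 290 well counted and lower and 91 to 104 well counted and higher as each library was left out, and 629 to 737 genes that differed from CAL27 cells. DESeq2 called 912 lower and 365 higher. With the replicate number as a block, counts were 753 and 252, and 287 and 92 for well-counted genes, but same-numbered libraries shared only a number and not every library correlated best with its own.

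Genes with no call that changed sign were close to 0: DUSP6 was at 0.0046 with DESeq2's size factors and 0.0043 with DESeq2, and with single libraries left out BAG3 ran from -0.049 to 0.185, CDH1 from -0.045 to 0.021, CYP1B1 from -0.216 to 0.109, HSF1 from -0.055 to 0.217, HSPA5 from -0.0058 to 0.0598 and SLC2A1 from -0.024 to 0.0996. Of the settings tried on the genes named, 161 gave a weaker call, 6 a stronger one (BAG3, HSF1 and GAS1 without DOX replicate 1, CDON without DOX replicate 3 and in the 12-library fit, and MET in the 12-library fit) and 12 a changed sign, against 3031 that gave the same. The CAL27 DOX columns have no replicate number, so no block was fitted over both lines. Depth in molecules limits what can be said of genes under about 10 counts, more so with DOX.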
